A study of Homo sapiens with 4 samples.

Results

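GLO1 and 9 other genes of the glyoxalase, glutathione and NRF2 systems were followed in PC3 cells given an siRNA against COUP-TFII. The genes were chosen by a value of this same comparison, the fall of GLO1, which was the most consistent on the array, and the other members were taken from the pathways around it. The 10 genes are GLO1, HAGH, GCLC, GCLM, GSR, NQO1, HMOX1, TXNRD1, NFE2L2 and KEAP1, out of 19775 genes with a probe set of their own, and they hold 20 of the 41091 probe sets that name a single gene. Differences of these genes between the groups are therefore given as a description with their spread, and nothing is tested with them. The COUP-TFII siRNA group held 2 arrays and the control siRNA group 2 arrays, each of total RNA taken 48 h after transfection with 40 nM of siRNA. All 4 came from PC3, a single human line that was started from a prostate carcinoma that had spread to bone, grown in medium with fetal bovine serum. COUP-TFII is a DNA-binding receptor of the nuclear receptor family with no settled ligand. The sources used here give neither the siRNA sequences nor whether the replicates were separate transfections, and the level of the targeted transcript was not analysed here.

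Methylglyoxal, a reactive by-product of glycolysis, binds spontaneously to glutathione, and the glyoxalases turn the adduct into D-lactate and give the glutathione back. Glutamate-cysteine ligase carries out the first and rate-limiting step of glutathione synthesis, and glutathione is kept reduced by glutathione reductase. The transcription factor NRF2, encoded by NFE2L2, is held at low levels by KEAP1, which hands it to a ubiquitin ligase. When electrophiles or oxidants modify KEAP1, NRF2 accumulates and activates detoxification genes through antioxidant response elements.

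The 4 arrays were alike in brightness, with median intensities between 31.7 and 32.9 over 54675 probe sets. Epithelial markers were bright on every array, with KRT8, KRT18, KRT19, EPCAM and CDH1 between 2024 and 9941. KRT8 averaged 4781 with COUP-TFII siRNA and 4266 with control siRNA, and KRT18 9819 and 8954. EPCAM averaged 5208 with COUP-TFII siRNA and 6149 with control siRNA, and CDH1 2149 and 2641, while the KRT19 groups overlapped. KLK3 and KLK2, markers of androgen-responsive luminal cells, were at most 25.9. TMPRSS2, the third measured marker of luminal cells, read 391 and 392 with COUP-TFII siRNA and 132 and 157 with control siRNA, and the 3 summed to 427 to 431 with COUP-TFII siRNA and 176 to 180 with control siRNA. The 4 measured leukocyte markers summed to 66.4 to 76.7 in COUP-TFII siRNA arrays and 65.4 to 76.2 in control siRNA arrays, and PTPRC was at most 21.5. Of the endothelial markers, VWF was at most 1.76 and TEK at most 19.6. PECAM1 read 244 and 193 with COUP-TFII siRNA and 171 and 171 with control siRNA, and CDH5 17.8 and 11.8 against 7.87 and 2.05. The 4 summed to 219 to 267 with COUP-TFII siRNA and 192 to 194 with control siRNA. The 5 fibroblast markers summed to 1090 to 1109 with COUP-TFII siRNA and 687 to 791 with control siRNA. COL1A1 alone read 962 and 950 with COUP-TFII siRNA and 599 and 540 with control siRNA, while DCN was at most 44.7. The signal at the 3′ end over that at the 5′ end grows as RNA is degraded. For ACTB it was 1.42 and 1.46 in the COUP-TFII siRNA arrays against 1.52 and 1.83 in the control siRNA arrays. For GAPDH it was 0.994 and 0.986 against 0.957 and 0.986, so only the ACTB ratio was higher in the control siRNA arrays. The part of these ratios, of the epithelial markers, of TMPRSS2, of PECAM1 and of COL1A1 in the results that follow was not tested.

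Of the 10 genes, GLO1, TXNRD1 and GSR were lower and HMOX1, KEAP1 and GCLC higher past the threshold of the fit across all genes, and HAGH, GCLM, NQO1 and NFE2L2 did not pass. That fit (limma, Benjamini-Hochberg adjusted p under 0.05) called 23.0% of all genes, 12.7% as higher and 10.3% as lower, and since the genes were chosen on this contrast nothing is read from their count of 6 in 10. Without a given array the fit called 958 genes higher and 1370 lower (COUP-TFII siRNA replicate 1), 1222 and 1126 (COUP-TFII siRNA replicate 2), 1077 and 886 (control siRNA replicate 1) or 882 and 942 (control siRNA replicate 2), against 2519 and 2039 with all 4. The groups did not overlap for 9 of the 10 genes, 5 with COUP-TFII siRNA higher and 4 with it lower. Such separation was common on the array, at 30.8% of all genes for higher and 26.7% for lower. The median log2 difference of the 10 genes, COUP-TFII siRNA minus control siRNA, was 0.07, beside 0.01 for all genes. Only GLO1 and HMOX1 of these genes moved by more than 1 on the log2 scale, and 7 of them differed by less than 0.5. In bulk RNA, fewer cells that carry a transcript and less of it per cell cannot be told apart. Centring each array on the median log2 intensity of 11 housekeeping genes raised the median of all genes by 0.225. After it 6 of the 10 genes were called higher and 2 lower, beside 6321 and 1130 of all 19775 genes. Before centring, the log2 differences of the 11 ran from −0.77 to 0.26 with a median of −0.05, and 1 was called higher and 2 lower. The shift was thus set by the gene in the middle of each array, and was larger than the median change of the 11. Quantile normalization called 5 of the 10 higher and 3 lower, beside 2585 and 2185 of all genes.

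**Figure D1:**
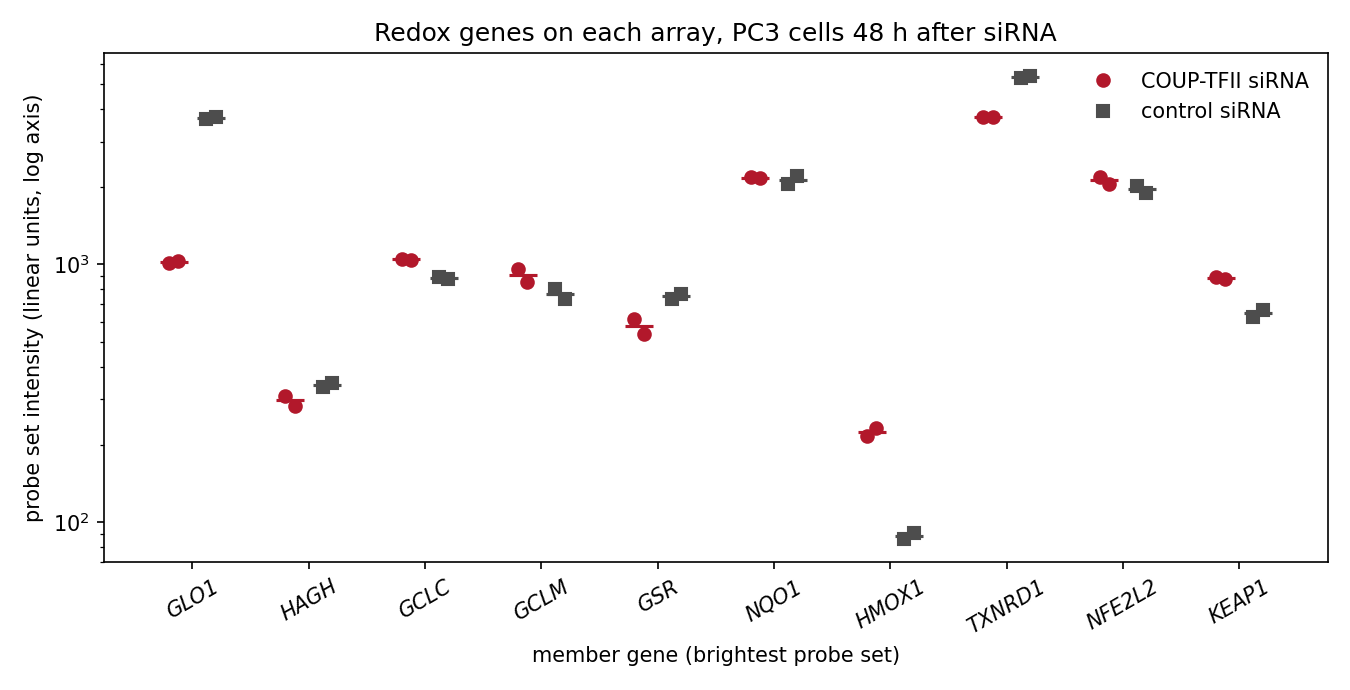
Intensity of the brightest probe set of each gene on every array (log axis), with COUP-TFII siRNA as red circles, control siRNA as grey squares and lines at the group means. GLO1 sits near 1021 with COUP-TFII siRNA and 3708 with control siRNA, HMOX1 near 224 and 88.2, and the NQO1 groups overlap. Heights of different genes come from different probes and are not comparable.

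GLO1, the glyoxalase that acts on the glutathione adduct of methylglyoxal, showed the widest difference of the 10 genes. Its only probe set, 200681_at, read 1012 and 1029 on the COUP-TFII siRNA arrays, against 3675 and 3741 on the control siRNA arrays. The 2 groups lay far apart and each pair of replicates was tight, with means of 1021 ± 12 and 3708 ± 46 (SD, n = 2 each). The COUP-TFII siRNA mean was thus 27.5% of the control siRNA mean, a log2 difference of −1.84 ± 0.05 (SE). Among all 19775 genes, 28 had a more negative log2 difference, and none had a more negative ratio of the difference to its SE, which is the value that singled GLO1 out. Without any 1 array the difference was −1.86 to −1.83. HAGH, the glyoxalase that hydrolyses the product and releases glutathione, read 310 and 284 with COUP-TFII siRNA and 336 and 345 with control siRNA. All of its COUP-TFII siRNA values were below the control siRNA values, and the log2 difference of −0.19 ± 0.09 (SE) did not pass, and it became 0.04 after housekeeping centring. It was −0.25 to −0.13 with any 1 array left out, so the 2 enzymes of the pathway differed widely in size of change.

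Several genes had nearly the same values as GLO1 across the 4 arrays after the control mean was subtracted on the log2 scale. The 5 nearest by Euclidean distance were FANCI (0.061), JAZF1 (0.067), CENPM (0.089), LIFR (0.093) and NCAPH (0.100). They were sought among genes whose mean over the 4 arrays was above that of the median gene, 83.9. The COUP-TFII siRNA means of JAZF1 (43.1), CENPM (73.6), LIFR (59.4) and NCAPH (50.6) were below it. These genes were thus included only through their control siRNA values. FANCI read 104 and 101 with COUP-TFII siRNA and 419 and 415 with control siRNA, and JAZF1 42.1 and 44.1 against 199.9 and 190.5. The distance was taken after 16 was added to each value. On the deposited scale the control siRNA mean was 3.99 to 4.53 times the COUP-TFII siRNA mean in these 5 genes and 3.63 times in GLO1. With 4 arrays in 2 groups, the distance reflects mainly the size of the difference between the groups.

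The bases before the GLO1 start are shown because this gene carried the widest change. They lie at chr6:38703146-38703395 of GRCh38.p14, on the minus strand, as given by RefSeq, and read 5′ to 3′ up to the start, with the match to the AP-1 motif TGACTCA in capitals.
GLO1: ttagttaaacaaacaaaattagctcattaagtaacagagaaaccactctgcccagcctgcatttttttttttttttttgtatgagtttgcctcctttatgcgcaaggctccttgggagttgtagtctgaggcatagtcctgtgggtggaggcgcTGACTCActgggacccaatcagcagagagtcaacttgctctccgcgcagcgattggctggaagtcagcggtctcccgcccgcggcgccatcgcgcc
The match begins 96 bases before the start. Searched on both strands, this motif was in 4.20% of the 35116 RefSeq windows of the same 250 bases. The antioxidant response element core TGACNNNGC and the nuclear receptor half-site AGGTCA were not in these letters of GLO1. Nor was the direct repeat of the half-site with 1 spacer base, an arrangement bound by COUP-TF proteins. Other arrangements of the half-site were not searched for. The direct repeat was in 0.0171% of all windows and the half-site in 12.1%. A match is a description of letters only.

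GCLC, the catalytic subunit of glutamate-cysteine ligase, read 1048 and 1044 with COUP-TFII siRNA and 894 and 881 with control siRNA on its brightest probe set. These groups were separate and tight, and the log2 difference was 0.23 ± 0.06 (SE). It passed with all 4 arrays but with none of the 4 fits that left 1 array out, in which it was 0.22 to 0.24, and not when its probe sets were averaged or a single prior variance was used. GCLM, the modifier subunit that raises the ligase's efficiency, read 958 and 859 with COUP-TFII siRNA and 801 and 731 with control siRNA. The groups did not overlap, but the difference of 0.24 ± 0.08 (SE) did not pass, and its replicates lay further apart than those of GCLC. GCLM passed after quantile normalization, after housekeeping centring and when dim genes were left out. GSR, glutathione reductase, which returns oxidised glutathione to the reduced form with NADPH, went the other way. Its brightest probe set read 616 and 536 with COUP-TFII siRNA and 735 and 769 with control siRNA, a log2 difference of −0.38 ± 0.08 (SE). The call was lost without COUP-TFII siRNA replicate 2 (−0.28), without control siRNA replicate 1 and without control siRNA replicate 2, over a range of −0.48 to −0.28 in the 4 such fits, and after housekeeping centring, where the value was −0.15.

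KEAP1, the sensor that targets NRF2 for degradation, was higher while the NRF2 transcript itself barely differed. KEAP1 read 892 and 875 with COUP-TFII siRNA, against 627 and 667 with control siRNA, with no overlap and a log2 difference of 0.44 ± 0.07 (SE). It was 0.40 to 0.48 with any 1 array left out. NFE2L2 read 2190 and 2047 with COUP-TFII siRNA and 2025 and 1903 with control siRNA on its brightest probe set. The lowest COUP-TFII siRNA value was just above the highest control siRNA value, and the difference of 0.11 ± 0.06 (SE) did not pass, though it did after quantile normalization and after housekeeping centring.

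HMOX1, TXNRD1 and NQO1, 3 of the NRF2 targets followed here, went 3 different ways. Of the glutathione genes given above, the log2 differences of GCLC (0.23) and GCLM (0.24, which did not pass) were positive, like that of HMOX1. That of GSR (−0.38) was negative, like that of TXNRD1. HMOX1, heme oxygenase 1, which breaks heme down to biliverdin, iron and carbon monoxide, read 215.3 and 232.3 with COUP-TFII siRNA and 86.0 and 90.4 with control siRNA. Every COUP-TFII siRNA value was more than double every control siRNA value, with means of 224 ± 12 and 88.2 ± 3.1 (SD, n = 2 each). The log2 difference was 1.20 ± 0.13 (SE), and 93 of all genes had a higher one. At this brightness the added constant moved the value, and the difference was 1.33 with 1 added before the logarithm and 0.92 with 64 added. TXNRD1, the cytosolic thioredoxin reductase, read 3740 and 3750 with COUP-TFII siRNA, against 5308 and 5382 with control siRNA. The replicates agreed closely and the groups were apart, at a log2 difference of −0.51 ± 0.04 (SE), or −0.29 after housekeeping centring. NQO1, a quinone reductase often used as a readout of NRF2 activity, read 2191 and 2157 with COUP-TFII siRNA and 2054 and 2207 with control siRNA. Its groups overlapped, the log2 difference was 0.03 ± 0.06 (SE), and it was −0.02 without control siRNA replicate 1. Housekeeping centring took it to 0.26, past the threshold.

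**Figure D2:**
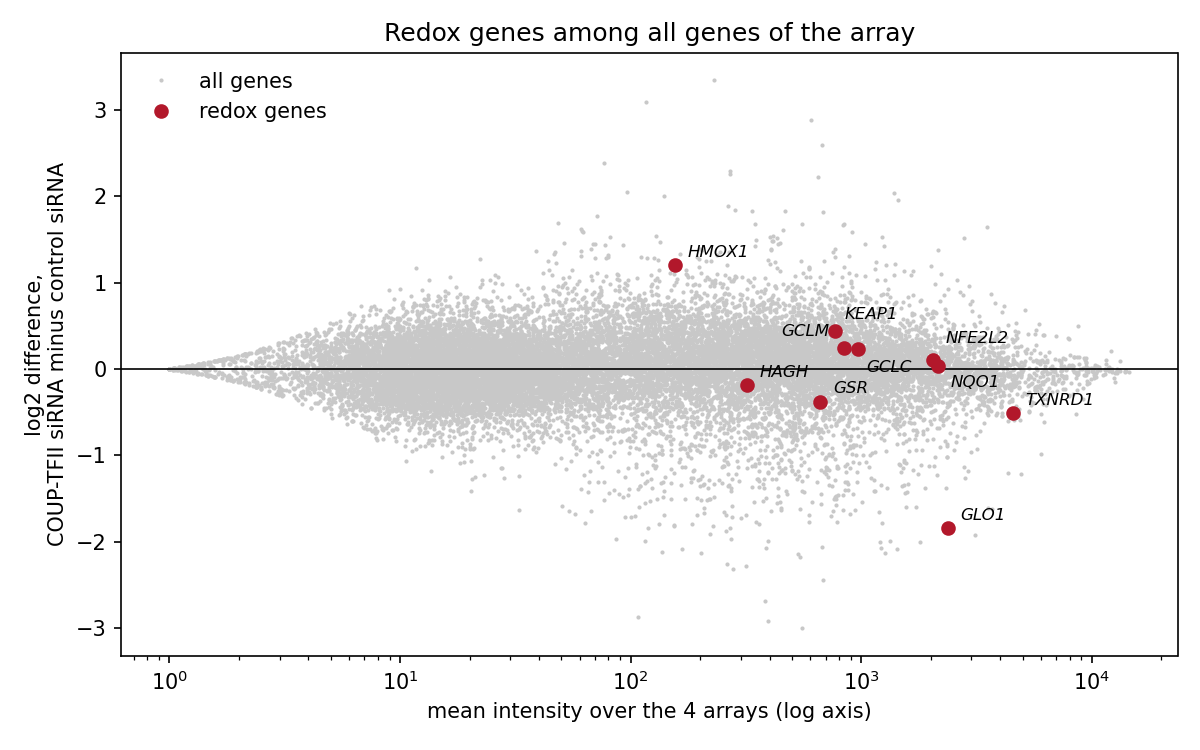
Log2 difference, COUP-TFII siRNA minus control siRNA, against mean intensity over the 4 arrays (log axis) for all 19775 genes, in grey, with the 10 redox genes in red. GLO1 at −1.84 and HMOX1 at 1.20 lie at the edges of the cloud, and the other 8 lie between −0.51 and 0.44.

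Where a gene had several probe sets they did not always give the same answer. Of the 10, 6 genes had more than 1, and the bright probe sets of the ligase subunits leaned one way. For GCLC the other bright probe set, 202922_at, gave 0.15, with overlapping groups, and the dim 1555330_at gave 0.33 at intensities of 5.01 to 13.0. For GCLM, 234986_at gave 0.28 and 236140_at 0.11, so that all 3 probe sets of each subunit were on the positive side. The second GSR probe set, 205770_at, read 125 and 116 with COUP-TFII siRNA and 145 and 108 with control siRNA, which overlapped, at −0.05. Averaging its 2 probe sets moved GSR to −0.22, which did not pass. The 3 NQO1 probe sets lay on both sides of 0, at 0.09, −0.11 and 0.03, and none of them passed. The second TXNRD1 probe set, 1561080_at, was near background at 8.28 to 21.3, and averaging with it gave −0.32, which did not pass. The other 2 NFE2L2 probe sets were also dim, at 14.1 to 40.8, and another, 1567014_s_at, which also names CSNK2A1 and was left out, read 192 and 199.8 with COUP-TFII siRNA and 184 and 203 with control siRNA. When all 41091 single-gene probe sets were tested, 6 of the 20 passed, the brightest ones of GLO1, TXNRD1, GSR, HMOX1, KEAP1 and GCLC, where 15.1% of all probe sets passed.

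**Figure D3:**
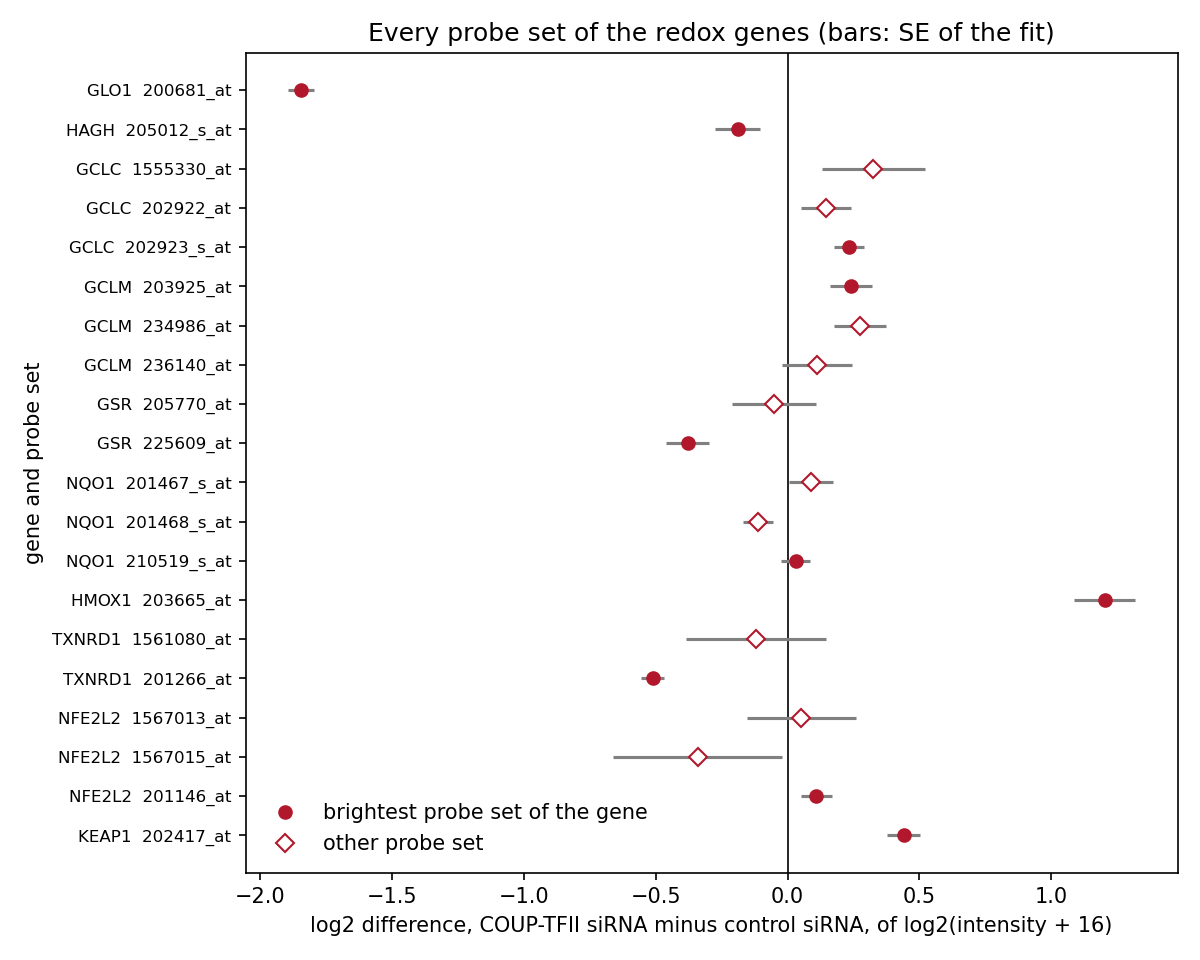
Log2 difference, COUP-TFII siRNA minus control siRNA, of each of the 20 probe sets, with the SE of the fit as bars, circles for the brightest probe set of a gene and open diamonds for its others. The 3 GCLC and 3 GCLM probe sets lie right of 0, the 3 NQO1 probe sets on both sides, and the widest bars belong to the dim probe sets of TXNRD1 and NFE2L2.

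The RefSeq table held windows for 8 of the 10 genes (GLO1, HAGH, GCLC, GCLM, NQO1, TXNRD1, NFE2L2 and KEAP1), 12 windows in all since some genes have more than 1 start. The antioxidant response element core TGACNNNGC, searched on both strands, lay in 4 of the 12, from GCLM, TXNRD1 and KEAP1, and in 10.9% of all 35116 windows. These matches are shown because they mark which of the genes hold the letters of an NRF2-type element close to a start, each with 10 bases on either side, 5′ to 3′ in the direction of the gene, with the match in capitals (the core is read on the opposite strand in GCLM, in the second of the TXNRD1 stretches and in the second of KEAP1). The GCLM stretch is chr1:93909446-93909474 on the minus strand, those of TXNRD1 chr12:104215670-104215698 and chr12:104286920-104286948 on the plus strand, and those of KEAP1 chr19:10502807-10502835 and chr19:10502784-10502812 on the minus strand, all in GRCh38.p14.
GCLM: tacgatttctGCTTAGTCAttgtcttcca
TXNRD1, one start: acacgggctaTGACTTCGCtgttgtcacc
TXNRD1, another start: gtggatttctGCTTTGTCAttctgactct
KEAP1, 54 bases before: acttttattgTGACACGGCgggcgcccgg
KEAP1, 31 bases before: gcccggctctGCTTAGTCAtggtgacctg
Beside these letters, the log2 difference was 0.24 for GCLM, which did not pass, 0.44 for KEAP1 and −0.51 for TXNRD1. KEAP1 and TXNRD1, both with a match, thus differed in direction. The half-site AGGTCA was found once, in the KEAP1 window that holds both of the element matches, beginning 19 bases before the start on the other strand, and its direct repeat in none of the 12. These 250 bases cover only a small part of the regulatory sequence of a gene, and no match says only that the letters are not in the window.

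The rest of redox metabolism was read from 7 lists of 126 measured genes that are not among the 10. Of these, 28 rose, 17 fell and 81 did not pass (limma, adjusted p under 0.05), with a median log2 difference of 0.03. That is 35.7% called, beside 23.0% of all genes, for lists that were chosen with results of these data known. Without 1 array the counts of rises and falls were 14 and 12 (COUP-TFII siRNA replicate 1), 16 and 7 (COUP-TFII siRNA replicate 2), 14 and 6 (control siRNA replicate 1) or 13 and 9 (control siRNA replicate 2). Of the 45 genes that passed, 18 also passed in all 4 of these fits, 13 in some and 14 in none. After housekeeping centring 64 rose and 7 fell, beside 6321 and 1130 of all 19775 genes, and the medians of the 7 lists were between 0.07 and 0.36. The counts given below for each list after this centring stand beside those same 6321 and 1130 genes. Those before it stand beside the 12.7% of all genes called higher and the 10.3% called lower.

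**Figure D4:**
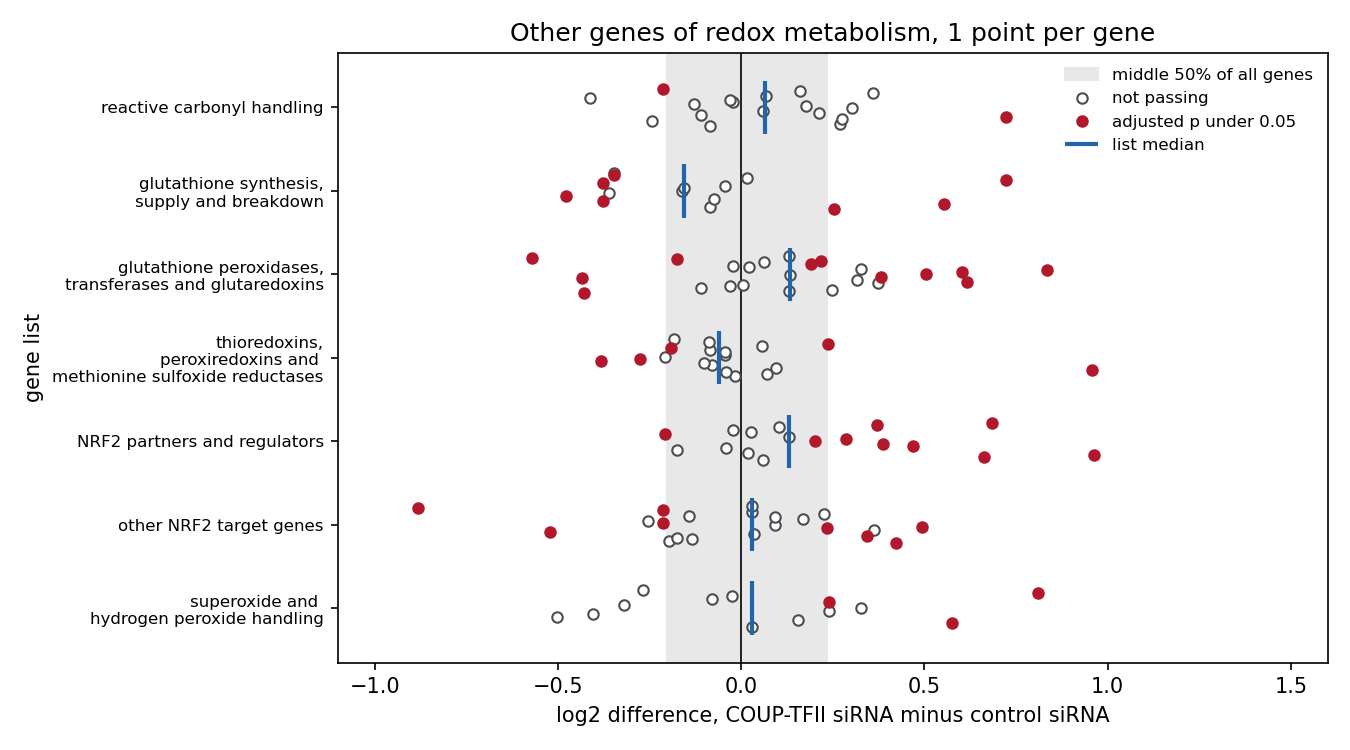
Log2 difference, COUP-TFII siRNA minus control siRNA, of each measured gene of the 7 lists, filled red where the limma adjusted p was under 0.05, with blue lines at the list medians and grey shading over the middle 50% of all genes. The medians lie between −0.16 and 0.13, and passing genes stand on both sides of 0 in every list but the one on superoxide and hydrogen peroxide.

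Of 18 enzymes of reactive carbonyls other than the glyoxalases, 1 was higher and 1 lower, with a median of 0.06. That is 11.1% called, beside 23.0% of all genes. After housekeeping centring 7 were higher and none lower. Many of the 18 were dim. With genes below the median intensity left out, 10 were tested, of which 2 were higher and 1 lower. AKR1C3, an aldo-keto reductase, rose to 841 and 811 with COUP-TFII siRNA, against 471 and 519 with control siRNA (0.72 ± 0.08 SE, limma adjusted p = 0.000191). Its transcript is similar to those of AKR1C1 and AKR1C2, and its reading may include them. PARK7, which encodes DJ-1, fell by 0.21 ± 0.04 (SE, limma adjusted p = 0.00657), with 5449 and 5419 against 6226 and 6372. PARK7 did not pass without COUP-TFII siRNA replicate 2 (limma adjusted p = 0.0514) or without control siRNA replicate 1 (0.0930) or 2 (0.140), and it was 0.01 after housekeeping centring. GLOD4, a relative of the glyoxalases, was −0.03 ± 0.08 (SE) and did not pass.

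In glutathione synthesis, supply and breakdown, 15 genes were measured, of which 3 rose and 4 fell, and the median was −0.16. After housekeeping centring 3 rose, 1 fell and the median was 0.07. OPLAH, 5-oxoprolinase, which recycles 5-oxoproline to glutamate, rose to 357 and 356 with COUP-TFII siRNA, against 191 and 230 with control siRNA (0.72 ± 0.11 SE, limma adjusted p = 0.00155). CHAC1, which cleaves glutathione, rose to 393 and 307, against 214 and 252 (0.55 ± 0.13 SE, limma adjusted p = 0.0161). GGCT, which makes 5-oxoproline from gamma-glutamyl amino acids, fell to 2990 and 2912 with COUP-TFII siRNA, against 4209 and 4033 with control siRNA (−0.48 ± 0.05 SE, limma adjusted p = 0.000150). The other falls were LAP3, a leucine aminopeptidase (−0.38), and, named after their values were seen, CHAC2 (−0.38) and SLC3A2, the heavy chain of the cystine and amino acid transporters (−0.35). ANPEP (0.25), likewise picked out by its value, was the third rise. Of these 7, GGCT was the only one to pass with every array left out in turn. OPLAH missed it without either COUP-TFII siRNA array (limma adjusted p of at most 0.0535), CHAC1 without COUP-TFII siRNA replicate 1 or either control siRNA array (at most 0.182), and LAP3 and SLC3A2 without either COUP-TFII siRNA array or control siRNA replicate 1 (at most 0.0937 and 0.174). CHAC2 and ANPEP passed in none of these fits. ANPEP was 0.17 when its probe sets were averaged, which did not pass. After housekeeping centring LAP3 (−0.15, limma adjusted p = 0.0970), CHAC2 (−0.15, 0.204) and SLC3A2 (−0.12, 0.2005) did not pass. GSS, the second enzyme of glutathione synthesis, was −0.04 ± 0.06 (SE), and SLC7A11, the cystine carrier and an NRF2 target, −0.35 ± 0.11 (SE, limma adjusted p = 0.053), and neither passed.

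Among glutathione peroxidases, transferases and glutaredoxins, 24 genes were measured, of which 7 rose and 4 fell, and the median was 0.13. After housekeeping centring 13 rose and 3 fell. GSTM3, a mu class glutathione transferase, rose to 2061 and 2023 with COUP-TFII siRNA, against 1142 and 1135 with control siRNA (0.83 ± 0.05 SE, limma adjusted p = 1.2e-05), with both of its probe sets passing. GPX4, which reduces lipid peroxides, rose to 3965 and 3906, against 2483 and 2643 (0.62 ± 0.05 SE, limma adjusted p = 4.75e-05). GSTM2 rose by 0.60 ± 0.08 (SE) on a probe set open to cross-hybridisation within the mu class. MGST2, a microsomal transferase, fell to 487 and 504 with COUP-TFII siRNA, against 767 and 722 with control siRNA (−0.57 ± 0.07 SE, limma adjusted p = 0.000534). The other falls, named after their values were seen, were GPX8 (−0.44), GLRX, glutaredoxin 1 (−0.43), and MGST1 (−0.18, which was 0.05 after housekeeping centring). The other rises, named likewise, were GSTM1 (0.505), GSTA4 (0.38), GSTZ1 (0.22) and GSTP1 (0.19). With probe sets averaged GSTA4 was 0.22 and MGST1 −0.09, and neither passed. The GSTM3, GPX4, GSTM2, GSTM1, MGST2 and GLRX calls stood with any array left out. In those fits GSTA4 was 0.28 to 0.49, GSTZ1 0.19 to 0.25 and GSTP1 0.13 to 0.25, and their calls did not stand in every fit. Without COUP-TFII siRNA replicate 1, COUP-TFII siRNA replicate 2, control siRNA replicate 1 or control siRNA replicate 2, the list had 4, 5, 4 or 4 rises and 4, 2, 2 or 2 falls. GPX8 and MGST1 were the falls lost, both without COUP-TFII siRNA replicate 2 and without either control siRNA array (limma adjusted p of at most 0.0965 and 0.323).

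The thioredoxin list had 2 rises and 3 falls among 18 genes, and a median of −0.06. After housekeeping centring it had 10 rises and 1 fall, and a median of 0.16. MSRB3, a methionine sulfoxide reductase, rose to 458 and 446 with COUP-TFII siRNA, against 205 and 247 with control siRNA (0.96 ± 0.11 SE, limma adjusted p = 0.000257). Only 2 of its 5 probe sets passed, and their average was 0.56. PRDX4, the peroxiredoxin of the endoplasmic reticulum, fell to 2981 and 2943, against 3821 and 3919 (−0.38 ± 0.05 SE, limma adjusted p = 0.000411). PRDX6 fell by 0.28 ± 0.05 (SE) and TXN, thioredoxin itself and the substrate of TXNRD1, by 0.19 ± 0.04 (SE), the second named after its value was seen. After housekeeping centring PRDX6 was −0.05 and TXN 0.03. PRDX6 did not pass without either control siRNA array (limma adjusted p = 0.0953 and 0.0759), and TXN without either control siRNA array or COUP-TFII siRNA replicate 2 (at most 0.155). TXNIP, an inhibitor of thioredoxin, rose by 0.24 ± 0.06 (SE), on 1 of 3 probe sets, but passed in none of the 4 fits with 1 array left out. With probe sets averaged TXNIP was 0.19 and TXN −0.18, and neither passed. PRDX1 (0.10 ± 0.04 SE) and SRXN1 (−0.09 ± 0.06 SE), both known NRF2 targets, did not pass.

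Of 17 partners and regulators of NRF2, 8 rose and 1 fell, and the median was 0.13. Among all genes 12.7% were called higher and 10.3% lower. After housekeeping centring 13 of the 17 rose and none fell, beside 6321 and 1130 of all 19775 genes. With a single prior variance 2 rose and none fell, beside 754 and 814 of all genes. BTRC, the adaptor of another ubiquitin ligase that acts on NRF2, rose to 313 and 304 with COUP-TFII siRNA, against 146 and 155 with control siRNA (0.96 ± 0.11 SE, limma adjusted p = 0.000235). That held for 1 of its 5 probe sets, and their average of 0.39 did not pass. SQSTM1, the autophagy receptor p62, which binds KEAP1 and is itself an NRF2 target, rose to 6425 and 6273, against 3848 and 4036 (0.69 ± 0.05 SE, limma adjusted p = 1.61e-05, 2 of 5 probe sets). DPP3, which competes for KEAP1, rose by 0.47 ± 0.06 (SE, limma adjusted p = 0.00045) on both of its probe sets. BACH2, a repressor related to BACH1, rose by 0.66 ± 0.15 (SE) and passed in none of the 4 fits with 1 array left out (limma adjusted p = 0.0527 to 0.149). NFE2L3, a relative of NRF2 and the only fall, was named after its value was seen (−0.21 ± 0.06 SE), passed in none of those 4 fits and was 0.02 after housekeeping centring. The rises numbered 4 without COUP-TFII siRNA replicate 1, 4 without COUP-TFII siRNA replicate 2, 4 without control siRNA replicate 1 and 3 without control siRNA replicate 2. BACH1, the repressor of HMOX1, was 0.06 ± 0.07 (SE), and CUL3, the ligase scaffold that KEAP1 joins, −0.04 ± 0.06 (SE), and neither passed.

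Other targets of NRF2 had 4 rises and 4 falls among 21 genes, the median being 0.03. After housekeeping centring they had 11 rises and 2 falls. FTL, the ferritin light chain that stores iron, rose to 10201 and 10172 with COUP-TFII siRNA, against 7156 and 7313 with control siRNA (0.49 ± 0.04 SE, limma adjusted p = 4.47e-05). Its probe set is open to cross-hybridisation. ABCC1, an exporter of glutathione conjugates, rose by 0.42 ± 0.09 (SE), and the other rises, named after their values were seen, were BLVRB, a biliverdin reductase (0.34), and FECH, ferrochelatase, which makes heme (0.23). TRIM16 fell to 137 and 132 with COUP-TFII siRNA, against 241 and 283 with control siRNA (−0.88 ± 0.12 SE, limma adjusted p = 0.000872). CBR3, a carbonyl reductase, fell to 494 and 497, against 727 and 710 (−0.52 ± 0.07 SE, limma adjusted p = 0.000705). The other falls, also named after their values were seen, were TKT, transketolase (−0.21), and ME1, malic enzyme (−0.21), and both were 0.01 after housekeeping centring. TKT was 0.06 when its probe sets were averaged. With the same averaging ME1 was −0.02 and FECH 0.11, and neither passed. FTL, TRIM16 and CBR3 passed with any array left out, BLVRB only without COUP-TFII siRNA replicate 1 (limma adjusted p = 0.0319), TKT also only without that array (0.0422), and ABCC1, FECH and ME1 in none of the 4 fits.

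Of 13 genes that make or remove superoxide and hydrogen peroxide, 3 rose, 10 did not pass and the median was 0.03. That is 23.1% called, beside 23.0% of all genes. Many of the genes that did not pass were dim. With genes below the median intensity left out, 6 were tested, of which 3 rose and none fell. After housekeeping centring 7 rose and none fell. SOD2, the mitochondrial superoxide dismutase, rose to 430 and 345 with COUP-TFII siRNA, against 209 and 217 with control siRNA (0.81 ± 0.12 SE, limma adjusted p = 0.00113). Its 4 further probe sets, which also name SOD2-OT1 and were not tested, were higher by 0.72 to 1.22. CCS, the copper chaperone of SOD1, rose to 408 and 391, against 270 and 256 (0.57 ± 0.09 SE, limma adjusted p = 0.00168). PON2 rose by 0.24 ± 0.05 (SE), on 1 of 3 probe sets, was 0.07 as an average and passed in none of the 4 fits with 1 array left out (limma adjusted p = 0.053 to 0.136). SOD1 (−0.03 ± 0.04 SE) and CAT, catalase (0.03 ± 0.06 SE), did not pass.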

How the data were processed

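Per the labels' protocols, total RNA was amplified with a 3′ in vitro transcription kit, labelled with biotin and hybridised to 1-colour Affymetrix arrays. The authors deposited 1 intensity per probe set and array, unlogged (0.61 to 15890). How probes were summarised, corrected for background and scaled is not stated in the labels or headers, and detection calls were not used here. Intensities were used as log2(value + 16), without further scaling, so differences of dim genes are understated. Platform annotation named 1 gene for 41091 probe sets, 41037 of which matched a RefSeq entry (GRCh38.p14) by Entrez identifier. A gene was represented by its brightest probe set over the 4 arrays, leaving out _x_at sets where it had another. Groups were compared with limma 3.58.1 in R 4.3.3 (intensity trend, no replicate block), tested on simulated data, with Benjamini-Hochberg adjustment over 19775 genes. The smallest two-sided p of an exact permutation test at 2 against 2 is 0.333. All p-values rest on the spread between single arrays, and that spread may be technical only. Sequence windows are RefSeq's 250 bases before each start.

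The members and the 7 gene lists were chosen with earlier results of these data known. From each list the text names up to 4 passing genes with the largest change with separate groups and a higher mean above that of the median gene, and the 5 genes nearest to GLO1. Genes named beside them were chosen after their values were seen. Of 136 listed genes, 126 were measured by a probe set of their own, and the others were not analysed here.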

Additional observations from a re-analysis of the deposited data

How the results depend on the processing

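The arrays' number and the unknown scaling limit what can be read. The log2 differences of GLO1 and HMOX1 kept their direction and their call in all 14 alternatives (−1.86 to −1.62 and 0.92 to 1.43). Not all 14 could move these differences. They could not change with the replicate block, without dim genes or with a single prior variance. Nor could they change with averaged, all or _x_at probe sets, since each gene has 1 probe set. Both genes were chosen with this contrast known, so their calls are a description. TXNRD1 kept its call in all but averaged probe sets and KEAP1 in all but a single prior variance. GCLC and GSR kept theirs in 8 of 14 each, both losing it with averaged probe sets and a single prior variance, GCLC also with any array left out, and GSR after housekeeping centring and with 3 of the 4 arrays left out in turn. GCLM, not called otherwise, passed in 4, the replicate block among them. HAGH, NQO1 and NFE2L2 changed sign in 1 alternative each. Of 630 alternative values of the 45 list genes that passed, 474 kept direction and call, 149 kept direction only and 7 changed direction: after housekeeping centring PARK7 (0.0126), TKT (0.0125), ME1 (0.0112), NFE2L3 (0.0164), TXN (0.0325) and MGST1 (0.0496), and with averaged probe sets TKT (0.0644). Housekeeping centring gave 6321 genes higher and 1130 lower (84.8% higher, against 55.3%), and 64 and 7 in the redox lists. It gave 6 of the 10 members higher and 2 lower. Quantile normalization gave 5 of the 10 higher and 3 lower, beside 2585 and 2185 of all genes. A single prior variance gave 754 genes higher and 814 lower, 12 and 3 in the lists, and 1 member higher and 2 lower. Averaged probe sets gave 1631 genes higher and 1532 lower, and 2 members higher and 1 lower. An adjusted p of 0.01 gave 1450 genes higher and 1318 lower, and 17 and 11 in the lists, by its stricter construction. With 1 array left out, 882 to 1222 genes were higher and 886 to 1370 lower, 13 to 16 and 6 to 12 in the lists. The lone array of a group is then assumed to vary like the other group. The cause of the other shifts was not tested. The replicate numbers share only a number (the deviations of same-numbered arrays correlated at 0.017), and the fit with the replicate block gave 2849 genes higher and 2277 lower.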
